A study of Mus musculus with 28 samples.

Results

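The 10 genes described here form the core of the circadian clock and its first outputs: the activators Arntl and Clock, the repressors Per1, Per2, Per3, Cry1 and Cry2, the receptor Nr1d1, the output factor Dbp and the repressor Ciart. They were chosen by name from the 52636 genes counted in the ventromedial prefrontal cortex (vmPFC, a cortical region that takes part in the control of emotion) of 28 female mice, and 8 of the 10 were among the 19171 genes that had enough counts to be tested. Per3 and Ciart were listed at 0 in all 28 libraries. The 4 groups held 7 mice each: a LacZ control virus without stress (0 days), LacZ with 3 days of a stress procedure abbreviated sCVS, a virus labelled as a Slit1 knockdown without stress (0 days), and the same virus with 3 days of stress. All groups thus carried an injected virus. The labels used here name no strain, age, viral construct or hour of collection, and no value below is placed on a time of day. In bulk tissue, fewer cells of a type and less RNA per cell cannot be told apart.

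In the core loop of the clock, CLOCK and ARNTL (also called BMAL1) bind E-box sequences as a pair and switch on the Per and Cry genes, whose proteins return to the nucleus and block that pair. NR1D1 (REV-ERBα), itself switched on through E-boxes, represses Arntl in a second loop, and DBP carries the rhythm to further genes through D-box sequences. CIART is another repressor under E-box control. In mouse tissues with a running clock, Arntl RNA peaks at a different phase from Dbp, Nr1d1 and Per RNA. Per1 is also switched on by neuronal activity and by glucocorticoids.

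E-boxes of the form CACGTG stand close to listed start sites of Per1, Cry1 and Ciart. The 3 stretches around them are shown because they carry the element through which the activators reach the repressor genes. Each is upstream sequence in RefSeq's GRCm38.p6 promoter table, read 5′ to 3′ on the gene's strand, with the motif CACGTG in capitals. The stretch of Per1 is chr11:69098743-69098828 on the plus strand, that of Cry1 is chr10:85185069-85185154 on the minus strand and that of Ciart is chr3:95882229-95882384 on the minus strand.
Per1: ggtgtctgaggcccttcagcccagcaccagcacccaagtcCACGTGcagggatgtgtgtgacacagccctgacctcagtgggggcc
Cry1: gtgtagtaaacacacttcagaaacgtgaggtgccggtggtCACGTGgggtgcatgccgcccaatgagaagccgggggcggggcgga
Ciart: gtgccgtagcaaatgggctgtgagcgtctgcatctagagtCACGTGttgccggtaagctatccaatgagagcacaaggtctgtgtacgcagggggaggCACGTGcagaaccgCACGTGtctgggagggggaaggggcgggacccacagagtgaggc
The motif begins at position -166 from the upstream one of 2 listed starts of Per1, at -60 from that of Cry1, and at -116, -58 and -44 from that of Ciart. In the same 250 bases upstream, 6.02% of 32851 listed start sites had CACGTG. It was not found at the other listed start of Per1 or at those of Cry2, Per3, Clock, Dbp, Arntl and Nr1d1. The variant CACGTT (searched on both strands, 3.85% of start sites) was found once each in Cry1, Cry2 and Nr1d1, and a D-box (TTATGTAA or TTACGTAA on both strands, 0.931%) was found at 2 places in Per3. The table held 9 of the 10 members, Per2 being the one without an entry. A match describes letters and was not tested as a binding site.

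Another property of the members proved to run with their levels across libraries, the share of G and C in their exons. It was 41.5% for Clock, 48.3% for Arntl, 50.1% for Cry1, 54.3% for Cry2, 54.5% for Per2, 56.6% for Nr1d1, 57.2% for Dbp and 58.9% for Per1. Introns were counted too, so this is not the GC share of all counted sequence. The members also differed in gene span, with 5116 bp for Dbp, 7402 for Nr1d1, 14744 for Per1 and 30398 for Cry2. The span was 43343 bp for Per2, 53365 for Cry1, 94925 for Clock and 106662 for Arntl. GC share and span were not told apart, and the part of either in the levels was not tested. The stretches below are 120 coding bases from a single exon of each of 4 members, taken where the GC share is nearest to that of the whole gene (GENCODE M21 transcripts, GRCm38). They are shown so that the range can be seen, with G and C in capitals. They lie at chr5:76265819-76265938 (minus strand, exon 6 of 23), chr7:113299309-113299428 (plus strand, exon 13 of 20), chr7:45708272-45708391 (plus strand, exon 3 of 4) and chr11:69100736-69100855 (plus strand, exon 2 of 23).
Clock: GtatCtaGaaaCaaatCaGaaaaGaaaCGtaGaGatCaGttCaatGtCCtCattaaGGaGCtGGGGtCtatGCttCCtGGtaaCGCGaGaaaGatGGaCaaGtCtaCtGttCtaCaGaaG
Arntl: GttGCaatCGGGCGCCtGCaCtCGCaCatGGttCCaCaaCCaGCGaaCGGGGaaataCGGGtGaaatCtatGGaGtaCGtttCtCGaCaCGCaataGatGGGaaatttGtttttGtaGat
Dbp: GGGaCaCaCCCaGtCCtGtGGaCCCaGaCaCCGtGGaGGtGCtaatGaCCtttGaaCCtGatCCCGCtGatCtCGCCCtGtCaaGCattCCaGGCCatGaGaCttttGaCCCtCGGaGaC
Per1: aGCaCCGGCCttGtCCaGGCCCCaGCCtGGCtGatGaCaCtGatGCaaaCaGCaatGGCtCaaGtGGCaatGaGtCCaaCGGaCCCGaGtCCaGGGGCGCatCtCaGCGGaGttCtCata
These stretches hold 41.7%, 48.3%, 57.5% and 59.2% G and C.

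Counts were made over whole gene spans, introns included, and fragments lying in a pair of overlapping genes are by default counted for neither, so the neighbours of each member matter. Per3 (chromosome 4, 151003652 to 151044665, minus strand) lies entirely inside the span of Camta1, and Ciart (chromosome 3, 95878503 to 95882251, minus strand) entirely inside that of C920021L13Rik. Their counts of 0 thus do not show that the genes were silent. Of Cry2 (chromosome 2, 92403646 to 92434043, minus strand), 77.03% is shared with D930015M05Rik, and its level comes from the rest. Nr1d1 (chromosome 11, 98767932 to 98775333, minus strand) shares 14.5% with Thra, and Dbp (chromosome 7, 45705088 to 45710203, plus strand) shares 14.4% with Sphk2. Smaller shares were lost for Clock (chromosome 5, 76209868 to 76304792, minus strand; 4.88%) and Arntl (chromosome 7, 113207465 to 113314126, plus strand; 2.24%). No other gene overlapped Per1 (chromosome 11, 69095217 to 69109960, plus strand), Per2 (chromosome 1, 91415982 to 91459324, minus strand) or Cry1 (chromosome 10, 85131700 to 85185064, minus strand).

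Total counts ran from 30647778 to 44281716 per library. Libraries differed along 1 main axis, the first principal component, which held 58.8% of the variance of all tested genes. The component followed the GC slope of a library (r = 0.996), that is, the change in a gene's centred log2 level per standard deviation of exonic GC. A high slope means a library in which GC-rich genes stood high. It ran from -0.739 to 0.771, and each of the 4 groups held libraries of both signs. Slit1, the targeted gene, had group medians of 16.9 CPM (counts scaled to library size by TMM) in LacZ unstressed, 13.5 in LacZ stressed, 21.4 in knockdown-labelled unstressed and 13.03 in knockdown-labelled stressed libraries. Its log2 fold change with the knockdown label, averaged over stress, was -0.02 ± 0.30 (SE), so the knockdown was not visible in these counts and the virus is named by its label below. One knockdown-labelled stressed library, replicate 2, stood apart in bone markers (summed level 1327 CPM against a median of 5.003 over all libraries), and replicate 4 of LacZ stressed had the lowest T cell markers (0.498 CPM against a median of 49.8). Markers of excitatory neurons, among them Slc17a7, Neurod6, Tbr1 and Camk2a, were all present, with a summed level of 253 to 1472 CPM.

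Levels of different genes were compared per kb of the span that no other gene overlaps. On this scale the medians over libraries were 2.64 CPM per kb for Clock and 2.43 for Cry2, and Cry2 stood above Clock in 14 of 28 libraries, so these 2 could not be ordered. The others followed at 0.727 for Dbp, 0.604 for Nr1d1, 0.426 for Cry1, 0.404 for Arntl, 0.374 for Per2 and 0.333 for Per1. Neighbours in this order of levels had overlapping ranges over the libraries, and whether they differ within single libraries was not tested. Dbp exceeded Clock in 7 libraries, Nr1d1 in 5 and Per1 in 1. Since introns were counted, this scale mixes mature and unspliced RNA, and the countable part of Cry2 is short (6.98 kb).

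Of the activators, Arntl encodes the partner that binds E-boxes together with CLOCK. Its lowest, median and highest levels were 33.2, 43.1 and 50.8 CPM in LacZ unstressed, 35.8, 38.9 and 53.4 in LacZ stressed, 33.9, 44.4 and 51.7 in knockdown-labelled unstressed, and 27.3, 39.8 and 42.9 in knockdown-labelled stressed libraries. All 4 groups overlapped. Both stressed medians lay below both unstressed medians, as they also did for Per1, Per2 and Nr1d1. Clock, which encodes the other protein of the pair, had 146, 260 and 374 CPM in LacZ unstressed, 149, 258 and 359 in LacZ stressed, 147, 223 and 504 in knockdown-labelled unstressed, and 152, 231 and 346 in knockdown-labelled stressed libraries. Its lowest level over all libraries was that of LacZ unstressed replicate 1 and its highest that of knockdown-labelled unstressed replicate 7, so its whole range of 3.44-fold lay between a pair of unstressed libraries.

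The Period genes encode the repressors that accumulate over the cycle. Per1 had the widest range of the members, from 1.00 to 29.5 CPM, which is 29.5-fold. Its lowest, median and highest levels were 1.98, 4.46 and 29.5 CPM in LacZ unstressed, 1.34, 2.87 and 17.5 in LacZ stressed, 1.00, 6.196 and 15.2 in knockdown-labelled unstressed, and 1.84, 4.19 and 13.8 in knockdown-labelled stressed libraries. Every group held a library under 2 CPM and another above 10 CPM, and the groups overlapped throughout. Per2 ranged less, over 3.83-fold, with 11.9, 16.1 and 39.3 CPM in LacZ unstressed, 10.6, 15.7 and 28.4 in LacZ stressed, 11.1, 18.1 and 29.2 in knockdown-labelled unstressed, and 10.3, 12.7 and 27.0004 in knockdown-labelled stressed libraries.

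The Cryptochromes are the partners of the Period proteins in repression, and the levels of the 2 genes behaved differently. Cry1 was among the steadiest members, with 20.2, 22.1 and 31.4 CPM in LacZ unstressed, 18.01, 23.5 and 29.2 in LacZ stressed, 17.4, 21.8 and 32.6 in knockdown-labelled unstressed, and 19.6, 22.9 and 26.5 in knockdown-labelled stressed libraries. Its whole range was 1.87-fold. Cry2 ranged over 11.1-fold, with 11.1, 14.3 and 58.6 CPM in LacZ unstressed, 7.10, 14.7 and 40.2 in LacZ stressed, 5.27, 21.96 and 35.4 in knockdown-labelled unstressed, and 5.29, 15.7 and 37.4 in knockdown-labelled stressed libraries.

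Nr1d1, the receptor that represses Arntl, had 2.63, 3.85 and 21.0 CPM in LacZ unstressed, 2.23, 3.46 and 10.8 in LacZ stressed, 1.21, 4.74 and 11.8 in knockdown-labelled unstressed, and 1.77, 3.25 and 11.7 in knockdown-labelled stressed libraries. Dbp, a PAR bZIP factor and classic clock output, had 2.49, 2.63 and 20.6 CPM in LacZ unstressed, 1.97, 3.72 and 9.40 in LacZ stressed, 0.790, 3.53 and 8.37 in knockdown-labelled unstressed, and 1.84, 3.01 and 9.80 in knockdown-labelled stressed libraries. Per1, Cry2, Nr1d1 and Dbp shared their extreme libraries. Each was lowest in knockdown-labelled unstressed replicate 7 and highest in LacZ unstressed replicate 1, the reverse of Clock. These were also the libraries with the lowest and the highest GC slope. At the low end Dbp rested on 15 counts and Per1 on 19 counts in a library, so counting error alone is large there.

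**Figure D1:**
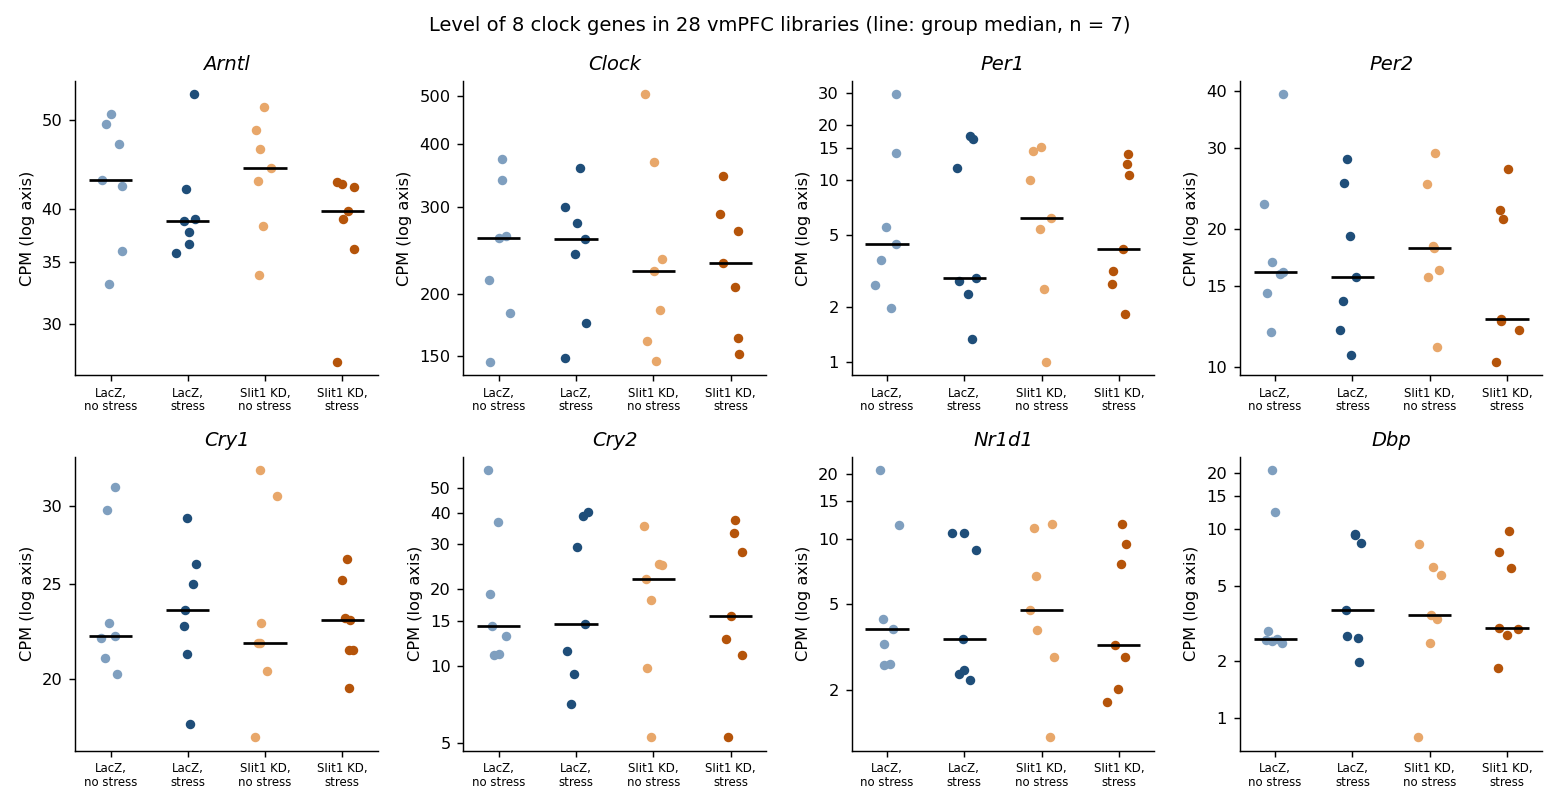
Level of each of the 8 measured clock genes in CPM (log axis) in the 28 libraries, by virus and stress group, with a line at the median of each group of 7. Per1, Cry2, Nr1d1 and Dbp spread widely within every group, Arntl and Cry1 narrowly, and all groups overlap.

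No clock gene passed the test in any comparison of virus or stress. With edgeR's quasi-likelihood test at an adjusted p under 0.05, 0 of the 8 members and 0 of the 19171 genes (0% called) passed in each of the 7 comparisons. DESeq2 also called 0, with 73 to 606 genes at an unadjusted p under 0.05. At an unadjusted p under 0.05 the counts over all genes were 172 (0.897%) for the knockdown label without stress, 158 (0.824%) for the label with stress, 77 (0.402%) for stress under LacZ and 343 (1.79%) for stress under the label. They were 68 (0.355%) for the interaction, 291 (1.52%) for the label averaged over stress and 424 (2.21%) for stress averaged over virus. Of the 8 members, 0 reached it in any of the 7.

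All 8 log2 fold changes of the stressed against the unstressed libraries, averaged over virus, lay below 0, with a median of -0.11, where 46.3% of all genes lay above 0 and their median was -0.01. Their standard errors were as large as or larger than most of these values. Nr1d1 stood at -0.20 ± 0.41 (SE), Per1 at -0.17 ± 0.48, Per2 at -0.16 ± 0.20 and Arntl at -0.14 ± 0.09. Clock stood at -0.08 ± 0.19, Dbp at -0.06 ± 0.39, Cry2 at -0.05 ± 0.34 and Cry1 at -0.05 ± 0.10. Without LacZ unstressed replicate 1, Per1 moved to 0.20, Dbp to 0.27, Cry2 to 0.17 and Nr1d1 to 0.10, so that the shared sign of those 4 genes rested on it. Dbp and Cry2 also turned when some other single libraries were left out. Arntl ran from -0.18 to -0.10 over the fits that left 1 library out. Per2 ran from -0.24 to -0.022 and Cry1 from -0.079 to -0.0012, so both kept their sign but came close to 0.

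Under the knockdown label, averaged over stress, the 8 values also lay below 0, with a median of -0.10, beside 44.1% of all genes above 0 and a median of -0.02 over all genes. Without LacZ unstressed replicate 1, 4 of the 8 lay below 0, and with sample numbers above 20 in the titles as a covariate 3 did, where Per1 stood at 0.46. Such numbers were more frequent among knockdown-labelled than among LacZ unstressed libraries, so label and number range are partly confounded there. Both averaged comparisons use all 28 libraries, and the 8 genes move together between libraries, so 8 equal signs are not 8 separate observations. The value furthest from 0 was that of Dbp, -0.37 ± 0.39, made up of -0.59 ± 0.55 without stress and -0.16 ± 0.55 with stress. Over the fits that left 1 library out, this average for Dbp ran from -0.51 to -0.058, the latter without LacZ unstressed replicate 1. Per1 stood at -0.18 ± 0.48, Cry2 at -0.15 ± 0.34 and Nr1d1 at -0.14 ± 0.41, and the others lay between -0.06 and -0.02. Without LacZ unstressed replicate 1, the Dbp value without stress moved to 0.04. The interaction of label and stress gave log2 values from -0.12 for Clock to 0.43 ± 0.78 for Dbp.

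The wide standard errors came down when the first principal component was entered as a covariate in the edgeR model, and the members still did not pass. The standard error of Per1 in the stress comparison fell from 0.48 to 0.12, and its log2 fold change became -0.23 (unadjusted p = 0.0579 in edgeR). Nr1d1 stood at -0.22 ± 0.11, Per2 at -0.19 ± 0.12 and Arntl at -0.14 ± 0.08 in that model, while Clock (0.00 ± 0.05) and Dbp (0.02 ± 0.13) lay at about 0. For the label, Dbp stood at -0.25 ± 0.13 (unadjusted p = 0.0668 in edgeR). Of the 8 members, 0 had an unadjusted p under 0.05 in that model in any comparison. The shares of all genes were 10.5% for stress and 7.79% for the label averaged, 5.35% and 2.38% for the label without and with stress, 1.87% and 8.52% for stress under LacZ and under the label, and 0.84% for the interaction.

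**Figure D2:**
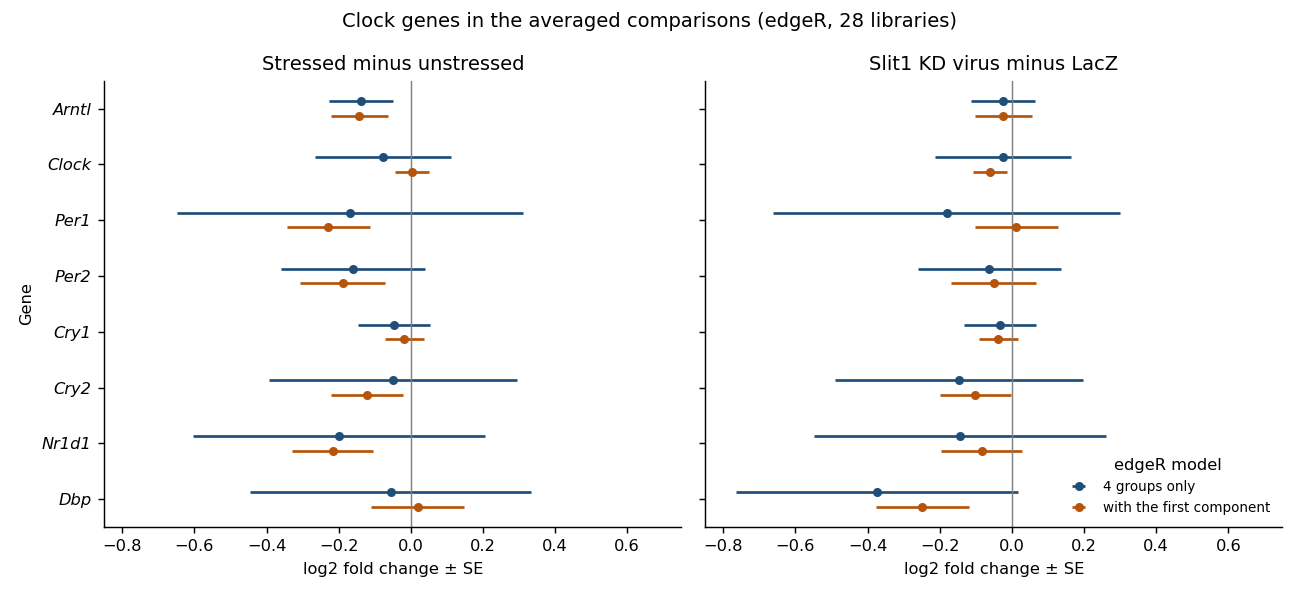
Log2 fold change ± SE of the 8 clock genes for stressed minus unstressed libraries (left) and for the Slit1 KD virus minus LacZ (right), in edgeR fits of the 4 groups alone and with the first principal component added. The bars of Per1, Cry2, Nr1d1 and Dbp shorten most, as with Per1 from 0.48 to 0.12 for stress.

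The wider clock list held 26 further genes, of which 24 were tested. Usp2 and Wee1, a pair of rhythmic outputs, were at 0 in every library and lie inside other genes. None of the 24 passed an adjusted p under 0.05 in edgeR in any comparison, and 1 of 24 had an unadjusted p under 0.05, where 2.21% of all genes did in that comparison. This was Btrc, a ubiquitin ligase subunit that acts on PER proteins, at -0.17 ± 0.07 for stress averaged over virus (unadjusted p = 0.0291, edgeR). In that comparison 6 of the 24 lay above 0, a lower share than the 46.3% of all genes, and the median was -0.07. This difference in shares was not tested. With the first component as covariate, 3 of 24 had an unadjusted p under 0.05 for stress averaged over virus (10.5% of all genes), 2 for the label averaged (7.79%) and 3 for stress under the label (8.52%), shares close to those of all genes. For stress averaged these were Gsk3b, a kinase of clock proteins, Btrc and Npas2. For the label they were Rora and Arntl2, and for stress under the label Gsk3b, Btrc and Tsc22d3. Without the covariate, the next smallest p after Btrc belonged to Npas2 (-0.21 ± 0.13), a relative of Clock that can take its place, to Rora (-0.16 ± 0.10), an activator of Arntl, and to Fbxl21 (-0.19 ± 0.12), a ligase subunit that acts on Cryptochromes. For the label averaged over stress without that covariate, 10 of 24 lay above 0, near the 44.1% of all genes. The smallest p there belonged to Rora at 0.19 ± 0.10, Arntl2 at -0.15 ± 0.09 and Tef at -0.18 ± 0.15. Within single arms of the design the smallest p belonged to Rora, Bhlhe41 and Tef for the label without stress, and to Arntl2, Tsc22d3, Rora and Btrc for the label with stress. They belonged to Btrc, Fbxl21, Rora and Npas2 for stress under LacZ, to Btrc, Hlf, Tsc22d3 and Npas2 for stress under the label, and to Hlf, Tsc22d3, Bhlhe41 and Nampt for the interaction.

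The spread of the members within groups followed the GC slope of the libraries closely. Against it, Pearson's r over 28 libraries was 0.98 for Per1, 0.98 for Nr1d1, 0.97 for Cry2, 0.95 for Dbp and 0.82 for Per2, and -0.96 for Clock and -0.80 for Cry1. For these 7 the permutation p was 1.00e-05, which is the least that 100000 resamples allow (adjusted over 32 relations, 1.68e-05). Spearman's rho was 0.96, 0.95, 0.96, 0.94, 0.76, -0.97 and -0.85 in the same order, with an adjusted permutation p of at most 4.80e-05. Arntl stood apart, with r = 0.27 (adjusted permutation p = 0.183) and rho = 0.17 (adjusted permutation p = 0.420). Without the 2 libraries farthest from the median slope, r was 0.97 for Per1, -0.95 for Clock, -0.79 for Cry1 and 0.25 for Arntl. The slopes left a gap between 0.0455 and 0.287, with 17 libraries below and 11 above it. Within these, r was 0.91 and 0.88 for Per1, -0.971 and -0.655 for Clock, 0.815 and 0.788 for Dbp, -0.815 and -0.404 for Cry1, 0.269 and 0.403 for Per2, and -0.237 and 0.192 for Arntl. Both sides of the gap held libraries of all 4 groups.

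**Figure D3:**
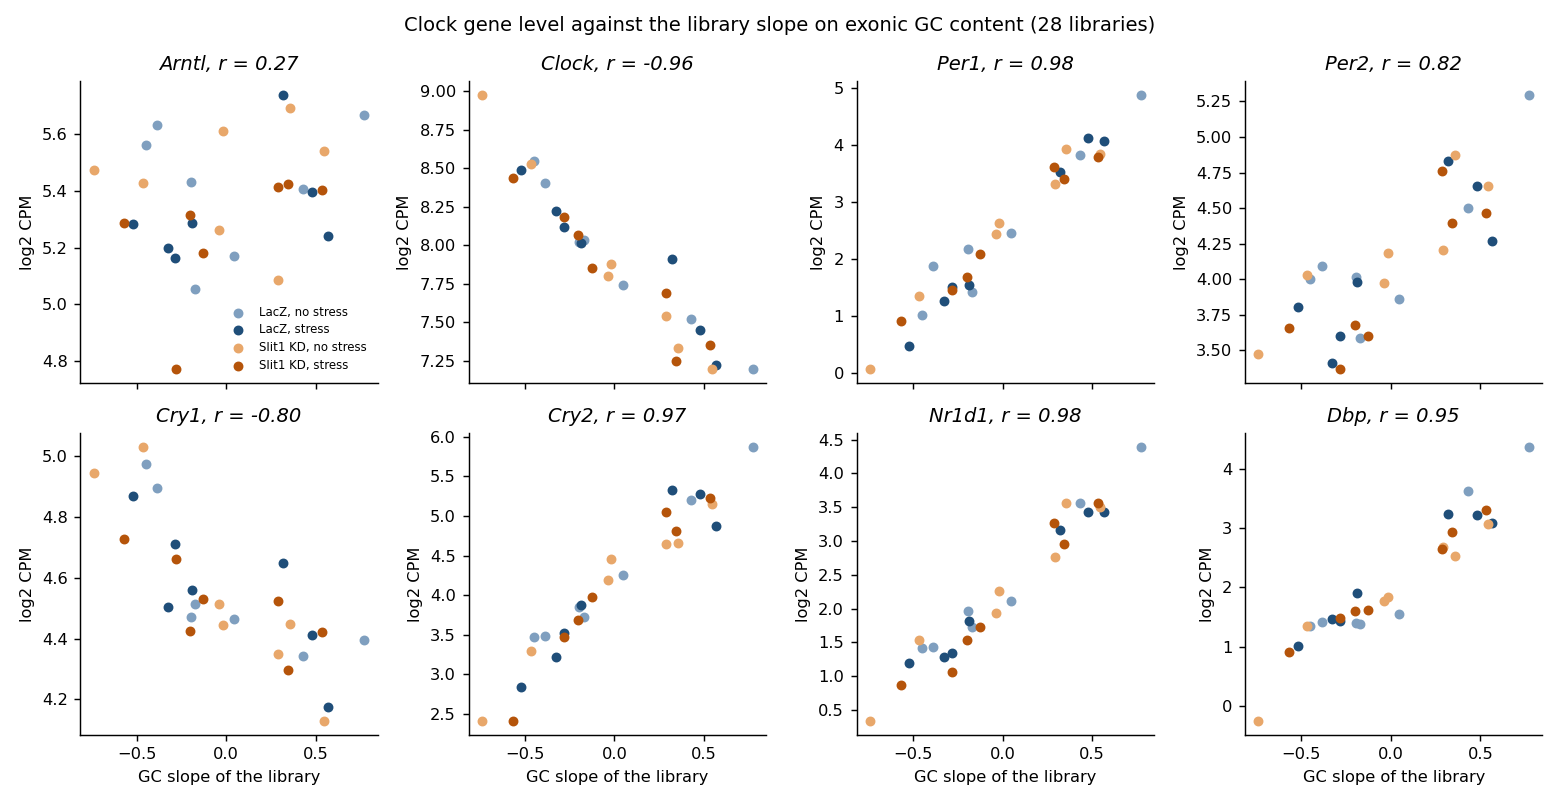
Log2 CPM of each clock gene against the GC slope of the library (change in log2 level per standard deviation of exonic GC), 1 point per library, coloured by group. Per1, Cry2, Nr1d1 and Dbp rise along a line, Clock and Cry1 fall, Arntl shows no line, and groups are mixed along the axis.

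The members followed the relation seen in all genes, with an exception. Among 4955 genes with an exonic GC under 45%, where Clock lies, the median r with the first component was -0.82. It was -0.23 for the 5570 genes from 45 to 50% (Arntl, 0.20), 0.69 for the 4860 genes from 50 to 55%, and 0.89 for the 3735 genes of 55% or more (Per1 0.97, Nr1d1 0.96, Dbp 0.94). Cry2 (0.96) and Per2 (0.78) lay on the side of their class. Cry1 did not, with an r of -0.84 where the lowest 10% of its class lay below -0.35. With 50.1% GC, Cry1 sits at the lower edge of that class. From 45 to 50% the lowest 10% lay below -0.88, so how far Cry1 departs depends on the class limits. The component held 94.5% of the variance of Clock, 94.4% of Per1, 92.0% of Cry2, 92.0% of Nr1d1, 88.7% of Dbp, 70.2% of Cry1, 60.8% of Per2 and 4.16% of Arntl. With it removed, the SD of log2 CPM fell from 1.29 to 0.31 for Per1 and from 0.48 to 0.12 for Clock, and stayed at 0.22 for Arntl.

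**Figure D4:**
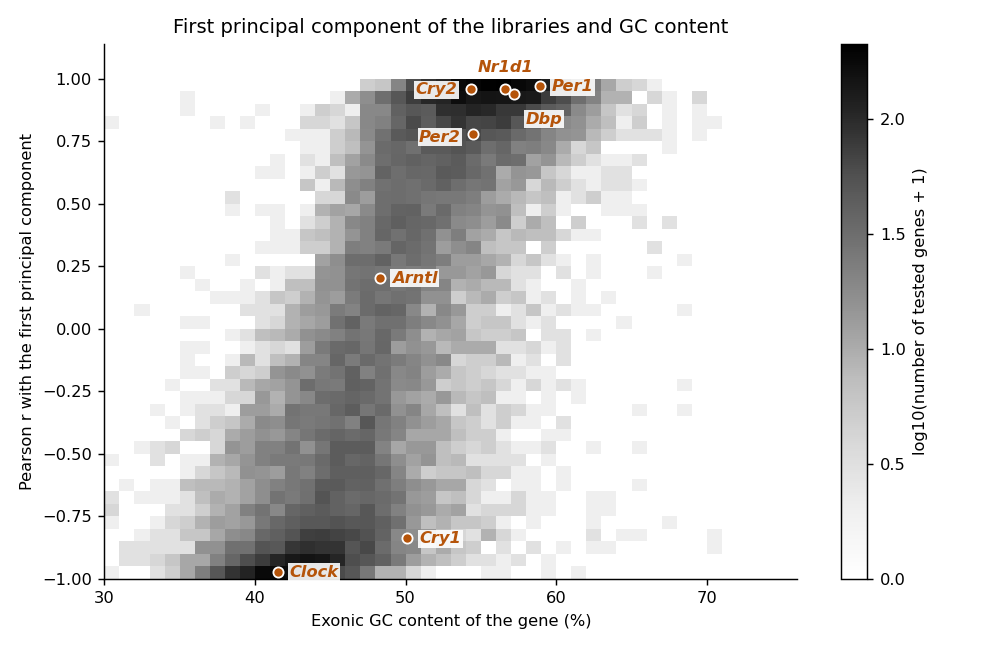
Pearson r of each tested gene with the first principal component of the 28 libraries against its exonic GC content in percent, as a density of genes (grey, log10 scale), with the 8 clock genes in orange. Clock lies at the GC-poor, negative end and Per1, Dbp and Nr1d1 at the GC-rich, positive end, while Cry1 lies below most genes of its GC content.

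Read without adjustment, the clock genes formed 2 opposed blocks across mice. Clock and Cry1 rose together (r = 0.89, rho = 0.88), as did Per1, Per2, Cry2, Nr1d1 and Dbp, with Per1 and Nr1d1 the closest pair (r = 0.98, rho = 0.95). Clock ran against Per1 (r = -0.93, rho = -0.94). Each of these had an adjusted permutation p of 1.75e-05 for r and 1.65e-05 for rho over 28 pairs, the smallest reachable. Without the 2 farthest libraries r was 0.89, 0.97 and -0.91. Of the 28 pairs, 23 passed an adjusted p under 0.05 in the permutation test of r, 13 positive and 10 negative, and 22 passed for rho. The 5 that did not pass were those of Arntl with Clock (-0.13), Cry1 (0.06), Dbp (0.32), Cry2 (0.35) and Per1 (0.36). Arntl passed with Per2 (r = 0.68, adjusted permutation p = 1.20e-04) and, at the edge, with Nr1d1 (r = 0.41, adjusted permutation p = 0.0350), which did not pass for rho (0.36, adjusted permutation p = 0.0727) or under RLE scaling (adjusted permutation p = 0.0612). The blocks are the same genes that lie on either side of the GC axis above. How many pairs of all tested genes would pass without adjustment was not computed. The first component held 58.8% of the variance of all tested genes, so the 23 passing pairs are not read as particular to the clock.

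With group means and the first component removed from each gene, all 28 pairs had a positive r, from 0.30 to 0.91 with a median of 0.57, and 25 passed. The 11 pairs that had been negative all changed sign. Clock with Per1 went from -0.93 to 0.33 (adjusted permutation p = 0.0881) and Cry1 with Nr1d1 from -0.71 to 0.64. The closest pairs were then Per2 with Nr1d1 (r = 0.91, rho = 0.91) and Arntl with Per2 (r = 0.83, rho = 0.84), both with an adjusted permutation p of 7.00e-05 for r and 9.33e-05 for rho. Without the 2 farthest libraries they were 0.90 and 0.84. Nr1d1, the repressor of Arntl, ran with it at 0.76. For comparison, 49.5 to 57.9% of all tested genes had a positive r with a given member after the same removal, and 9.58 to 18.5% had an r over 0.5. These p-values treat the residuals as if they had been measured, which makes them somewhat small. Removing the GC slope in place of the component likewise left all 28 pairs positive, of which 17 passed.

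The common positive relation was mostly absent once the next axis was removed as well. Such a removal also takes out any clock variation that runs along the axis, and the source of the relation was not tested. The second component held 14.7% of the variance and followed the T cell markers Cd3e, Cd8a and Gzmb (r = -0.88). Its r was 0.62 with excitatory neuron markers and -0.52 with astrocyte markers, and at most 0.34 in size with the other lists. With both components and the group means removed, 17 pairs were positive and 11 negative, and 3 passed (4 for rho). The 3 were Per2 with Nr1d1 (r = 0.77, adjusted permutation p = 8.40e-04), Arntl with Per2 (r = 0.57) and Per1 with Per2 (r = 0.56, both with an adjusted permutation p of 0.0207). These 3 pairs had also passed without adjustment and with the first component alone removed. How many pairs of all tested genes would pass with both components removed was not computed.

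**Figure D5:**
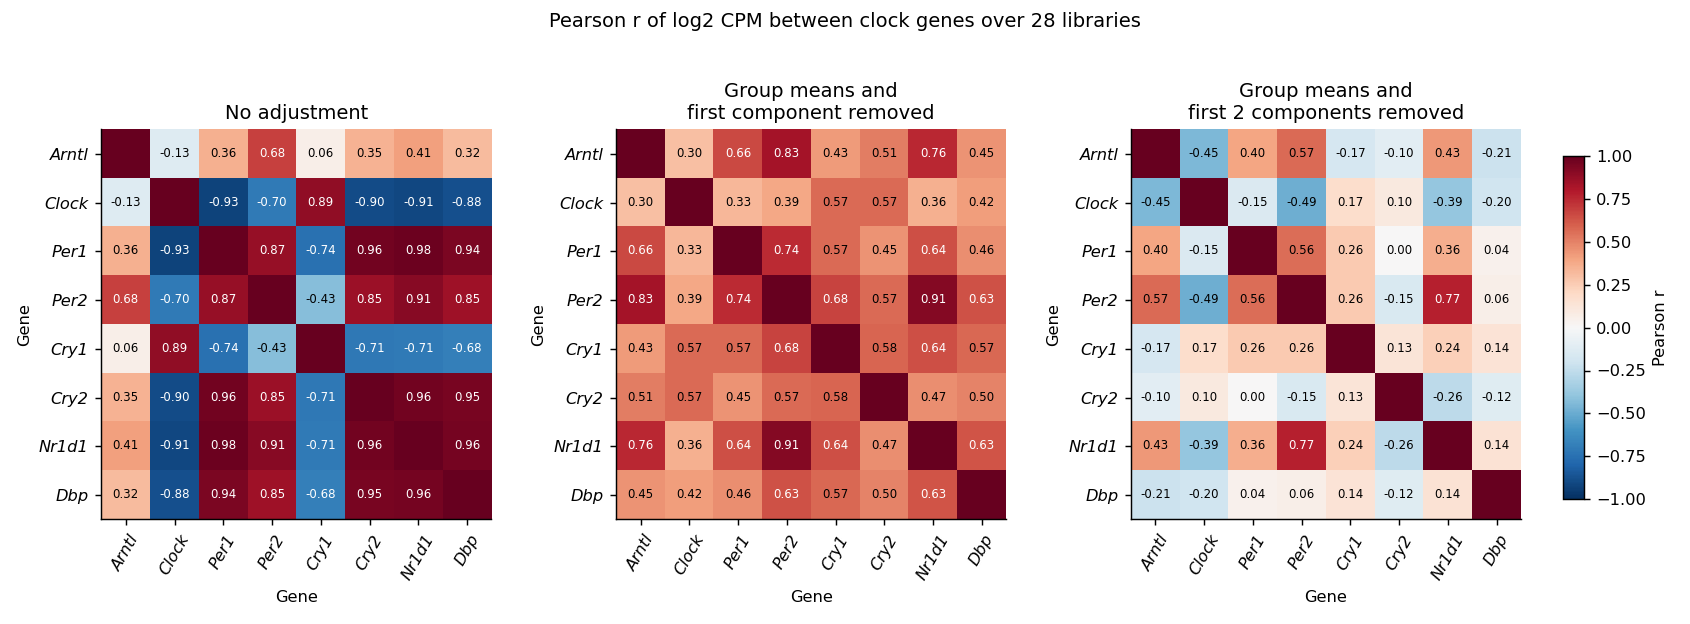
Pearson r of log2 CPM for the 28 pairs of clock genes over 28 libraries, without adjustment (left), with group means and the first principal component removed (middle) and with group means and the first 2 components removed (right). The opposed blocks on the left, such as Clock with Per1 at -0.93, are absent in the middle, where all pairs are positive, and few strong pairs are left on the right.

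Summed into arms, the activators and repressors showed the same dependence. The activator arm was the mean z score of Arntl and Clock, and the repressor arm that of Per1, Per2, Cry1, Cry2 and Nr1d1. Over 28 libraries their r was -0.16 and rho -0.12, given as a description. It hid opposite relations of the members of the activator arm, since Arntl alone had r = 0.56 with the repressor arm and Clock alone -0.77. With group means and the first component removed the arms ran together at 0.80, Arntl alone at 0.76 and Clock alone at 0.53. With the first 2 components removed the arms were at 0.11. Among libraries below the gap in GC slope the r was -0.15 and above it 0.44. The lowest value of any treatment was -0.27, in the 13 libraries with sample numbers above 20 in their titles, and the strongly negative values of single pairs all involved Clock or Cry1 before the first component was removed.

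Cell type markers moved with the members after the first component was removed, as they did with many other genes. A relation of a member with a marker list passed at an absolute r of 0.447 or more, and the share of all tested genes at or past that value is given beside each list. With the summed T cell markers, whose level ran from 0.498 to 154 CPM, all 8 members had a negative r, from -0.77 for Per2 to -0.57 for Clock, and all 8 passed an adjusted permutation p under 0.05 over 80 relations (7 of 8 for rho). Of all genes, 20.2% lay as low and 18.1% as high on the other side. Before adjustment the members' r with this list ran from -0.62 for Arntl to -0.04 for Per1. For Per2 rho was -0.85 and the adjusted permutation p 1.60e-04 for r and 1.33e-04 for rho. Without the 2 libraries farthest in these markers the values ran from -0.83 for Nr1d1 to -0.33 for Clock. Within the 15 libraries with sample numbers of 20 or less in their titles and the 13 above 20, Clock stood at -0.82 and 0.34, so its relation did not hold in both, while the other 7 members were negative in both. Group medians of this sum were 37.6 CPM in LacZ unstressed, 49.7 in LacZ stressed, 58.5 in knockdown-labelled unstressed and 84.7 in knockdown-labelled stressed libraries, with ranges that overlapped. With excitatory neuron markers all 8 had a positive r, from 0.38 for Cry2 to 0.86 for Arntl (rho = 0.84, adjusted permutation p = 1.60e-04 for r), and 6 passed, beside 19.9% of all genes. Before adjustment these ran from -0.44 for Clock to 0.86 for Per2. Within these ranges of sample numbers it was 0.67 and -0.13 for Clock and 0.71 and -0.14 for Cry2, so there the relation did not hold in both. It was also weak above 20 for Cry1 (0.73 and 0.09) and Dbp (0.66 and 0.13). Arntl, Per1, Per2 and Nr1d1 stood at 0.545 or more in both. With the GC slope removed in place of the component, Cry2 stood at 0.18, Dbp at 0.27 and Per1 at 0.39, and the others at 0.48 or more. Astrocyte markers gave negative values for all 8, from -0.67 to -0.24, with 6 passing, beside 14.8% of all genes. Before adjustment they ran from -0.79 to 0.56. For oligodendrocyte, bone and choroid plexus markers 0 of 8 passed, and for microglia, inhibitory neurons, endothelium and striatal neurons 4, 2, 1 and 1 did, beside 26.4%, 12.4%, 7.14% and 10.001% of all genes on either side. Microglia markers show how far the adjustment reaches, since their r with Per1 was 0.85 before it and -0.38 after it. All 5 excitatory, 5 inhibitory and 3 T cell markers were measured, while Ppp1r1b (striatal) and Folr1 (choroid plexus) were too low to test. The part of cell makeup in the relations between clock genes was not tested.

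Stress and activity genes were set beside Per1, which responds to both kinds of signal. With the first component and group means removed, Per1 had an r of 0.63 with Arc, an activity gene, 0.22 with Fos, 0.29 with Tsc22d3, 0.09 with Sgk1 and -0.08 with Fkbp5, the last 3 being glucocorticoid targets. None of these 5 passed an adjusted p under 0.05 in edgeR for stress averaged over virus, with log2 fold changes of 0.29 ± 0.51 for Arc, 0.06 ± 0.20 for Fos, 0.16 ± 0.13 for Tsc22d3, 0.08 ± 0.08 for Sgk1 and 0.10 ± 0.12 for Fkbp5. Of all tested genes, 9.59% had an r over 0.5 with Per1 after the first component and group means were removed. Arc is GC-rich like Per1 (59.0%), and its own r with the first component was 0.88.

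The genes whose levels were most like those of Dbp were sought over 28 libraries by Pearson's r after group means and the first component were removed, among 13047 named genes with a mean of at least 1 CPM. The 6 highest were Agfg2 (0.89), Ankmy2 (0.85), Slc39a3 (0.84), Lsm14b (0.84), Pnkd (0.84) and Rell2 (0.84). The 6 lowest were Scpep1 (-0.86), Anxa2 (-0.86), Edem1 (-0.85), Smim3 (-0.85), Rrbp1 (-0.84) and Litaf (-0.84). Among all 14980 genes of that level, the clock's own genes nearest to Dbp were Nr1d2, the close relative of Nr1d1, at rank 27 (r = 0.81) and Tef, a PAR bZIP factor like Dbp, at rank 32 (r = 0.80). The members described here ranked lower, from Per2 at rank 898 (r = 0.63) to Clock at rank 3881 (r = 0.42). Nr1d2 is GC-poor (44.0%) and ran against the GC axis before adjustment (r with the component -0.96), the opposite of Dbp. Nfil3, the repressor that competes for D-boxes, stood at the other end (r = -0.76, rank 14784), near Nampt (-0.77) and Timeless (-0.75).

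For Arntl the 6 highest were Lrrc6 (0.96), Syn2 (0.95), Cdk14 (0.94), Kcnip4 (0.93), Hecw1 (0.93) and Grhl1 (0.93), and the 6 lowest Erbin (-0.91), Lipo3 (-0.89), Cdca7 (-0.88), Prim1 (-0.87), Carhsp1 (-0.87) and Myo3b (-0.86). Of the 6 highest, Syn2, which encodes a synaptic vesicle protein, and Kcnip4, a potassium channel partner, are known as neuronal genes. The others are not described here, and no theme of the list was tested. The nearest member was Per2 at rank 250 (r = 0.83) and the nearest gene of the wider list was Hlf at rank 349 (r = 0.81). These values share libraries, depth and cell makeup, and describe likeness alone.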

How the data were processed

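RNA of 28 vmPFC punches (ribosome-depleted total RNA, strand-marking kit, 7 mice per group, per the labels' protocols) was deposited by the authors as raw fragment counts per gene. The counts were made with featureCounts 1.6.2 on read pairs over whole gene spans of Ensembl release 90 (GRCm38), with no strand option and duplicates removed, per the file headers. HISAT2 and DESeq2 are named with mm10, per the submitters' processing notes. Antisense and intronic reads thus count, and fragments shared by genes do not.

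The 10 members, the lists and the tests were chosen with earlier results of these data known. Symbols matched 52403 of 52636 identifiers. Genes kept by filterByExpr (19171) were given TMM factors and fitted in edgeR 4.0.16 (quasi-likelihood, robust, 4 group coefficients, Benjamini-Hochberg over all genes, call at 0.05) in R 4.3.3, after a check on simulated counts. Log2 CPM used a prior count of 2. The common coefficient of variation was 0.467. Relations used Pearson's r and Spearman's rho with two-sided permutation tests (100000) over libraries, for 28 pairs in place of 45 since 2 members had no counts. DESeq2 1.42.0, RLE scaling, no filter, covariates and omitted libraries were alternatives. Mice are separate animals per the labels; the lane of each library is not stated. All members were named. Of the wider list, members past the threshold were named, otherwise the 4 with the smallest p (1 gene is not reported here), and for likeness the 6 highest and 6 lowest named genes. Other examples were chosen after their values were seen.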

Additional observations from a re-analysis of the deposited data

Results flagged for a closer look

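In 32 groups of 7 libraries (8 genes in 4 groups), 3 held a library whose gap to its nearest neighbour exceeded 0.568 of the group's range, where chance gives about 1 in 20. Arntl in LacZ stressed reached 53.4 CPM in replicate 4, with the next library at 42.1 CPM. This is also the library with the lowest T cell markers. Arntl in knockdown-labelled stressed libraries fell to 27.3 CPM in replicate 7, with the next at 36.2 CPM, and that library had the lowest excitatory neuron markers (253 CPM) and the highest T cell markers (154 CPM) of all 28. It also had the highest inhibitory neuron markers (788 CPM against a median of 317) and striatal neuron markers (72.8 CPM against a median of 20.5). The r of Arntl with the striatal markers, with group means and the first component removed, was -0.61, and -0.36 without the 2 libraries farthest in them. Per2 in LacZ unstressed reached 39.3 CPM in replicate 1, with the next at 22.6 CPM, and that library had the highest GC slope (0.771). The part of these measures in the 3 levels was not tested.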

How the results depend on the processing

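The count of 0 genes held in all 7 comparisons under RLE factors, DESeq2, no filter, the first principal component or title numbers above 20 as covariate, fits of the compared groups alone, without both the bone-rich and the T cell-poor library, and without each library in turn (0 to 0). Without both libraries, Arntl alone of the 8 members had an unadjusted edgeR p under 0.05 for stress averaged over virus (-0.19). In that fit 1093 of the 19281 genes tested had one, so Arntl is not singled out.

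Log2 fold changes of members changed sign in 10 of 103 fits other than those leaving out 1 library. With the first component as covariate these were Per1 for the label (0.012) and Clock (0.0043) and Dbp (0.019) for stress. With title numbers above 20 as covariate they were, for the label, Dbp without stress (0.12), and averaged Per2 (0.077), Cry2 (0.16), Arntl (0.011), Per1 (0.46) and Nr1d1 (0.22), and without both libraries Arntl (0.0015). Numbers above 20 were more frequent among knockdown-labelled than among LacZ unstressed libraries, and the cause of the sign changes was not tested. Leaving out 1 library, the label's values ran from -0.83 to 0.043 for Dbp without stress, and averaged from -0.14 to 0.066 for Per2, -0.26 to 0.058 for Cry2, -0.14 to 0.034 for Clock, -0.056 to 0.014 for Arntl, -0.078 to 0.0038 for Cry1, -0.32 to 0.17 for Per1 and -0.30 to 0.14 for Nr1d1. For stress they ran from -0.16 to 0.17 for Cry2, -0.14 to 0.057 for Clock, -0.18 to 0.27 for Dbp, -0.33 to 0.20 for Per1 and -0.34 to 0.097 for Nr1d1.

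The count of passing pairs went from 23 to 3 with group means and the first 2 components removed. The r of the arms (-0.16, 95% interval -0.50 to 0.23) moved to 0.80 with the first component, 0.76 with the GC slope, 0.56 with Arntl alone and 0.44 above the GC gap, and ran from -0.23 to -0.10 without single libraries. With the first component removed, r changed sign to 0.30 for Arntl and Clock, 0.33 for Clock and Per1, 0.39 for Clock and Per2, 0.57 for Clock and Cry2, 0.36 for Clock and Nr1d1, 0.42 for Clock and Dbp, 0.57 for Per1 and Cry1, 0.68 for Per2 and Cry1, 0.58 for Cry1 and Cry2, 0.64 for Cry1 and Nr1d1 and 0.57 for Cry1 and Dbp. With the GC slope removed the same 11 pairs stood, in this order, at 0.43, 0.18, 0.50, 0.42, 0.36, 0.38, 0.37, 0.69, 0.41, 0.58 and 0.49. With the first 2 components removed, signs changed for Arntl and Cry1 (-0.17), Arntl and Cry2 (-0.10), Arntl and Dbp (-0.21), Clock and Cry2 (0.10), Per1 and Cry1 (0.26), Per2 and Cry1 (0.26), Per2 and Cry2 (-0.15), Cry1 and Cry2 (0.13), Cry1 and Nr1d1 (0.24), Cry1 and Dbp (0.14), Cry2 and Nr1d1 (-0.26) and Cry2 and Dbp (-0.12). In the 13 libraries with title numbers above 20, Arntl and Clock stood at 0.093, Arntl and Cry2 at -0.011 and Arntl and Dbp at -0.088, and in the 15 others Arntl and Clock at 0.023. Arntl and Cry1 ran from -0.015 to 0.13 without single libraries. With group means alone removed, Clock (-0.47) and Cry1 (-0.28) ran against excitatory neuron markers. Removals by GC slope, 2 components and marker relations were chosen after seeing the data. No paired analysis was possible because the labels give no replicate number shared between groups. Low counts limit Dbp, Nr1d1 and Per1, down to 15, 23 and 19 in a library.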

Other observations

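The share of counts on mitochondrial genes ran from 2.30 to 14.2% of a library and moved with the members. Over 28 libraries its r was 0.88 with Clock, 0.75 with Cry1, -0.83 with Per1, -0.79 with Nr1d1, -0.79 with Dbp, -0.77 with Cry2 and -0.60 with Per2, each with an adjusted permutation p of at most 0.00105, and -0.08 with Arntl (adjusted permutation p = 0.695). The rho values were 0.89, 0.78, -0.84, -0.81, -0.77, -0.79 and -0.63, with an adjusted permutation p of at most 6.10e-04, and -0.07 for Arntl (adjusted permutation p = 0.710). Without the 2 farthest libraries r was 0.85 for Clock and -0.82 for Per1. The members other than Arntl also followed the first component, as many other genes did. How many of all tested genes run with the mitochondrial share was not computed, so the relation is not read as particular to clock genes. The part of this share in the levels was not tested.

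Sample numbers in the titles also ran with levels. Per1 fell with the number (r = -0.51, rho = -0.52, adjusted permutation p = 0.00879 and 0.00696) and Clock rose (r = 0.44, rho = 0.43, adjusted permutation p = 0.0223 and 0.0288). Without the 2 farthest libraries these were -0.55 and 0.47. Within the 15 libraries with numbers of 20 or less r was -0.10 and -0.05, and within the 13 above 20 it was 0.37 and -0.13, so the relation lay between the 2 ranges of numbers and not within them. The labels do not say what the numbers stand for.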
